A study of Mus musculus with 10 samples.

Results

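The potassium, calcium and TRP ion channel genes were taken as every row of the gene count table whose symbol begins with Kcn, Cacna, Cacnb, Trpc, Trpm or Trpv followed by the member's letters and number, leaving out Kcnj8. This gave 53 genes of the 14995 in the table. RNA was counted by bulk sequencing in freshly sorted mouse stromal cells of 3 kinds. Skin Ebf2+ cells (3 libraries) and skin Ebf2- PαS cells, positive for CD140a and Sca1 (3 libraries), came from dorsal skin of FVB/N mice aged 8 to 12 weeks. Bone marrow mesenchymal stem cells (MSC), positive for Sca1 and CD51 (4 libraries), came from C57BL/6 mice aged 8 to 10 weeks. In every group cells carrying CD45, TER119 or CD31, the surface markers of leukocytes, erythroid cells and endothelium, had been sorted out. How Ebf2, a transcription factor of mesenchymal precursors, was marked in the sort is not stated in the labels. Skin and bone marrow differ in tissue, mouse strain, age range and the surface markers used, and these cannot be told apart in any comparison between them. The labels name an earlier study as the source of bone marrow libraries 1 to 3 and name none for library 4. In bulk samples fewer cells of a type and less RNA per cell cannot be told apart.

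Potassium channels let potassium leave or enter the cell and set its resting voltage, and accessory subunits change how they open and how many reach the membrane. Voltage-gated calcium channels are built around a pore-forming alpha1 subunit, with an extracellular alpha2delta subunit and a cytoplasmic beta subunit that govern its traffic and gating. TRP channels are cation channels opened by lipids, temperature, stretch or other chemical signals, many of them permeable to calcium. In vascular smooth muscle and pericytes, the mural cells of vessels, calcium entry through L-type channels drives contraction and potassium channels oppose it. In stromal cells, channels of all these classes have been tied to volume control, stretch sensing and magnesium balance.

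The libraries held 9830418 to 12982661 counts in skin Ebf2+, 11637842 to 14149713 in skin Ebf2- and 18122495 to 39422062 in bone marrow. Levels below are CPM, counts scaled by library size, with TMM scaling over the 10 libraries, and 3 counts corresponded to 0.0901 to 0.349 CPM per library. Ebf2 itself stood at 210, 317 and 157 CPM in skin Ebf2+, against 70.3, 73.5 and 47.1 CPM in skin Ebf2-, with 141 to 337 CPM in bone marrow. The sort's positive markers Pdgfra (CD140a), Ly6a (Sca1) and Itgav (CD51) were read in all 10 libraries, the lowest at 74.1 CPM. Bone marrow libraries 1 and 4 were almost the same: the chi-square of their counts was 3.15 per gene, where sampling noise alone gives about 1, against 103 to 566 in the other pairs within a group. No channel gene of the 53 was over 2-fold apart between them, against 21 to 34 in the other pairs. They were kept as separate libraries, and the calls made against bone marrow are also given with the pair summed. Skin libraries numbered 3 stood apart from the other skin libraries in the ribosomal RNA precursor Rn45s, with 4606 CPM for skin Ebf2+ and 1555 CPM for skin Ebf2-, against 57731 to 142457 CPM in numbers 1 and 2. Skin Ebf2- library 2 carried T cell transcripts, with Cd3e at 708 CPM, where no other library exceeded 3.58 CPM.

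Channel transcripts were a small share of each library. Summed over the 53 genes they came to 808, 895 and 497 CPM in skin Ebf2+, 451, 454 and 416 in skin Ebf2- and 966, 752, 716 and 911 CPM in bone marrow. Skin Ebf2- was the lowest group, with no overlap with either of the others. Between 35 and 52 of the 53 genes had a read in a given library, the most in skin Ebf2+ library 3 and the fewest in skin Ebf2+ library 1, 2 libraries close in total counts, in which 3 counts came to 0.235 CPM and 0.349 CPM after scaling. Those 2 libraries also had 2.36% and 14.9% of all table genes at 0, so channel genes and genes of any kind were missed in the same library. A read in every library of a group was found for 29 channel genes in skin Ebf2+, 34 in skin Ebf2- and 39 in bone marrow, which is 54.7%, 64.2% and 73.6% of the 53, against 75.6%, 89.2% and 82.6% of all table genes. RefSeq names 130 mouse genes that match the naming rule. All 4 calcium channel beta subunits and 7 of 8 calcium- or sodium-activated potassium channels were in the table, against 13 of 40 voltage-gated potassium pores, 3 of 14 inward rectifiers and 3 of 14 two-pore channels. The others were not analysed here.

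**Figure D1:**
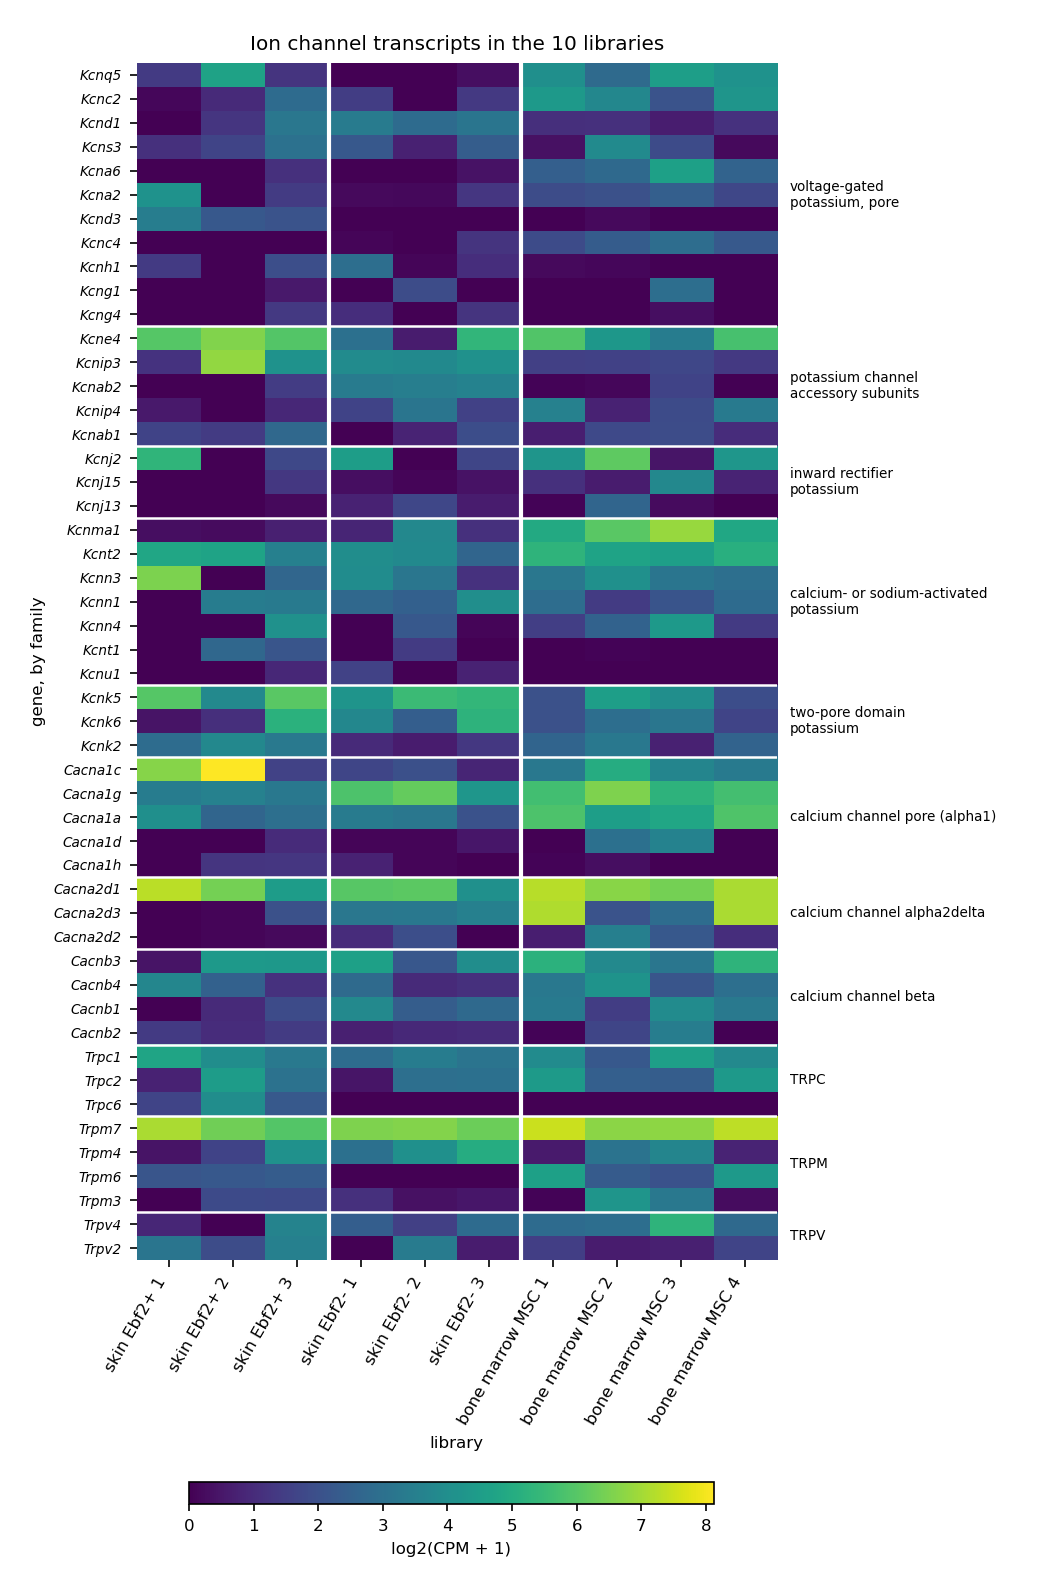
Levels of the channel genes reported (rows, ordered by family and by mean level) in the 10 libraries (columns), coloured by log2(CPM + 1). Trpm7 and Cacna2d1 are bright in every column, Trpc6 and Kcnd3 only in the skin Ebf2+ columns apart from 0.146 CPM of Kcnd3 in bone marrow 2, and bone marrow 1 and 4 look alike.

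Only 8 of the 53 genes reached 1 CPM in all 10 libraries, among them pores and accessory subunits. They were Trpm7, a fusion of a magnesium- and calcium-permeable channel with a kinase; Trpc1, a receptor- and store-linked cation channel; the calcium channel subunits Cacna1a (P/Q-type pore), Cacna1g (T-type pore, open near rest) and Cacna2d1 (the alpha2delta subunit bound by gabapentin); Kcnip3, a calcium-binding partner of A-type potassium channels; Kcnk5, an alkali-opened background potassium channel; and Kcnt2, a sodium-activated potassium channel. Trpm7 had 136, 80.9 and 60.6 CPM in skin Ebf2+, 93.4, 97.2 and 77.8 in skin Ebf2- and 176, 104, 107 and 159 CPM in bone marrow. Its skin Ebf2- values lay below all 4 bone marrow values, and its skin Ebf2+ values overlapped both. Cacna2d1 had 156, 85.3 and 21.3 CPM in skin Ebf2+, 63.5, 67.0 and 16.0 in skin Ebf2- and 151, 102, 84.7 and 136 CPM in bone marrow. Both skin libraries numbered 3 were its lowest.

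Channel genes were ranked against each other only per kilobase of annotated exon, since long transcripts collect more reads. Kcne4, a single-pass subunit that damps several voltage-gated potassium channels, ranked first over the 3 group means, with 27.3 ± 7.08 CPM per kilobase in skin Ebf2+ (SD, n = 3), 5.89 ± 7.84 in skin Ebf2- (n = 3) and 13.2 ± 9.30 in bone marrow (n = 4). Trpm7 was second, with 8.18 ± 3.46 in skin Ebf2+, 7.91 ± 0.907 in skin Ebf2- and 12.1 ± 3.22 CPM per kilobase in bone marrow. Kcnk5 came next, with 13.7 ± 8.47 in skin Ebf2+, 10.1 ± 4.31 in skin Ebf2- and 3.22 ± 2.86 CPM per kilobase in bone marrow, and was the top channel gene of skin Ebf2-. Cacna2d1, Kcnip3, Cacnb3, Cacna1g, Cacna2d3, Trpc2, Kcnt2, Kcnj2 and Kcnk6 completed the first 12. Neighbours in this order were not tested against each other, and the SD exceeded the mean in at least 1 group for Kcne4, Kcnip3, Cacna2d3, Trpc2, Kcnj2 and Kcnk6, for Kcnj2 in all 3 groups. Trpc2 shares 100% of its annotated exon bases with the neighbouring read-through gene Xntrpc and with Xndc1, so its reads cannot be assigned to it.

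**Figure D2:**
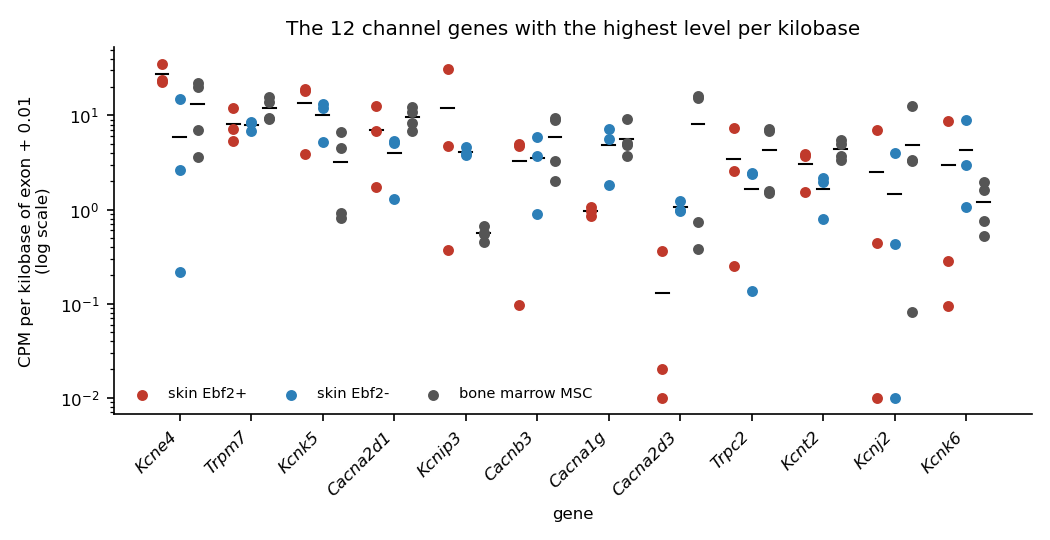
CPM per kilobase of exon (log axis, 0.01 added so that zeros show) of the 12 channel genes with the highest level per kilobase; each point is 1 library and each line the group mean. Kcne4 in skin Ebf2+ lies at 22.8 to 35.4. Kcnip3 lies at 0.437 to 0.661 in bone marrow, below both skin group means, but skin Ebf2+ library 1, at 0.360, lies below all of bone marrow.

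Skin Ebf2+ was first compared with skin Ebf2-, which asks how channel genes differ between stromal populations of dorsal skin. Skin Ebf2+ held Trpc6 and Kcnd3 reads in all 3 libraries where skin Ebf2- had 0, together with more Trpm6, Kcnq5, Kcnk2 and Kcne4, and less Cacna1g, Kcnab2 and Cacna2d3. None of these differences passed the test. Of the 53 genes, 43 passed the filter on low counts, and edgeR's quasi-likelihood test called 0 of them at an adjusted p of 0.05, with 0% of the 13477 genes tested called in either direction or lower. At an unadjusted p under 0.05 there were 7 of 43, against 2.55% of all genes. DESeq2 called 4 (Cacna1c, Kcnd3, Trpc6 and Trpm6), against 0.911% of all genes, and limma-voom called 0. A fit with the replicate number as a block called 0, against 0.0594% of all genes. In the authors' deposited table, members called were 6, against 0.931% of all genes: Cacna1c, Kcnd3, Kcnq5, Trpc6 and Trpm6 higher and Cacna1g lower. All 3 skin Ebf2+ values exceeded all 3 skin Ebf2- values for 8 of the 43, against 3.00% of all genes, and lay below them for 6 of the 43, against 3.72% of all genes. The median log2 fold change over the 43 was 0.84, against 0.01 over all genes tested, and 29 of the 43 were positive, against 50.4% of all genes.

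Among the TRP genes, Trpc6 gave the lowest adjusted p. This receptor-operated channel, opened by diacylglycerol and known from vascular smooth muscle, lies on chromosome 9 from 8543867 to 8680752 (GRCm38.p6). Trpc6 had 2.21, 14.6 and 3.84 CPM in skin Ebf2+ libraries 1 to 3, from 19, 168 and 49 reads, against 0 reads in all 3 skin Ebf2- libraries and in all 4 bone marrow libraries. Every skin Ebf2+ library held it and no other library did. No gene in the table had counts in fewer than 3 libraries, so a gene read in skin Ebf2+ alone was listed only with all 3 read. Its level was at least 94.0-fold higher than in skin Ebf2-, taking 3 counts in all as the floor for its 3 libraries, and at least 41.2-fold without skin Ebf2+ library 2 (log2 fold change 9.41 ± 2.31 SE, edgeR adjusted p = 0.873). Trpm6, the magnesium channel-kinase of gut and kidney epithelium and a partner of Trpm7, lies on chromosome 19 from 18730177 to 18892521. It had 3.37, 3.75 and 4.16 CPM in skin Ebf2+, against 0 reads in all 3 skin Ebf2- libraries, at least 51.2-fold higher (8.53 ± 2.25, adjusted p = 0.940). Its 3 skin Ebf2+ values lay close together, with an SD of 0.394 CPM.

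Among the voltage-gated potassium pores, Kcnd3, which carries a fast inactivating A-type current, had 9.88, 3.75 and 3.22 CPM in skin Ebf2+, against 0 reads in skin Ebf2-. It was at least 76.5-fold higher, and at least 47.4-fold without skin Ebf2+ library 1 (log2 fold change 9.11 ± 2.26, adjusted p = 0.879). Kcnq5, a pore of the slow M-type current, had 1.63, 24.7 and 1.33 CPM in skin Ebf2+, against 0, 0 and 0.236 CPM in skin Ebf2- (6.74 ± 2.26, adjusted p = 0.9999). Its mean rested on skin Ebf2+ library 2, and the other skin Ebf2+ values were still above all of skin Ebf2-. Summed over the 13 pores of this family, CPM was 35.1, 64.6 and 50.2 in skin Ebf2+, against 27.8, 11.4 and 31.1 in skin Ebf2-, without overlap. The TRPC sum was 37.9, 57.2 and 27.8 CPM in skin Ebf2+, against 6.66, 16.3 and 18.5 CPM in skin Ebf2-, also without overlap. It includes Trpc2, whose reads cannot be assigned to it. Trpc2 had 0.697, 21.3 and 7.29 CPM in skin Ebf2+, against 0.366, 6.77 and 6.99 CPM in skin Ebf2-. The TRPM sum was 140, 89.2 and 83.6 CPM in skin Ebf2+, against 102, 113 and 110 CPM in skin Ebf2-, and overlapped.

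Kcnk2, a stretch-opened background potassium channel, had 6.39, 12.98 and 8.71 CPM in skin Ebf2+, against 0.951, 0.552 and 1.49 CPM in skin Ebf2- (log2 fold change 3.22 ± 1.29, adjusted p = 0.9999). Kcne4 had 62.5, 94.1 and 60.6 CPM in skin Ebf2+, against 6.95, 0.552 and 39.4 CPM in skin Ebf2- (2.22 ± 1.16, adjusted p = 0.9999). Skin Ebf2- library 3 came closest to skin Ebf2+ for this gene. Kcnab2, a cytoplasmic beta subunit of Shaker-type potassium channels, ran the other way, with 0, 0 and 1.73 CPM in skin Ebf2+, against 9.44, 10.0 and 11.2 CPM in skin Ebf2-. The difference was a log2 fold change of -4.12 ± 1.94 (adjusted p = 0.9999). Kcnip4, another calcium-binding partner of A-type channels, had 0.465, 0 and 0.863 CPM in skin Ebf2+, against 2.12, 8.01 and 1.96 CPM in skin Ebf2-. The accessory subunits of potassium channels thus ran in both directions, and Kcnip3 overlapped, with 1.28, 110 and 16.6 CPM in skin Ebf2+, against 14.05, 13.33 and 16.4 CPM in skin Ebf2-.

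Calcium channel subunits were uneven within skin Ebf2+. Cacna1c, the L-type pore of smooth and heart muscle, had 99.4, 278 and 2.04 CPM in skin Ebf2+, against 2.27, 2.97 and 0.785 CPM in skin Ebf2-. Library 3 fell within the skin Ebf2- range, so the groups overlapped (log2 fold change 5.97 ± 1.49, adjusted p = 0.873), although DESeq2 called the gene. Cacna1g, a T-type pore that opens at small depolarisations, had 9.65, 10.8 and 8.55 CPM in skin Ebf2+, against 57.4, 72.2 and 18.3 CPM in skin Ebf2-. All 3 skin Ebf2+ values were lower (-2.36 ± 0.75, adjusted p = 0.9999). Cacna2d3, an alpha2delta subunit, had 0, 0.0871 and 3.06 CPM in skin Ebf2+, against 8.41, 8.63 and 10.6 CPM in skin Ebf2-. Cacnb1, the beta subunit of the skeletal muscle L-type channel, had 0, 0.958 and 2.59 CPM in skin Ebf2+, against 13.1, 4.28 and 5.81 CPM in skin Ebf2-. Each of these had skin Ebf2+ library 3 nearest to skin Ebf2-, apart from Cacna1g, for which library 2 was nearest.

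**Figure D3:**
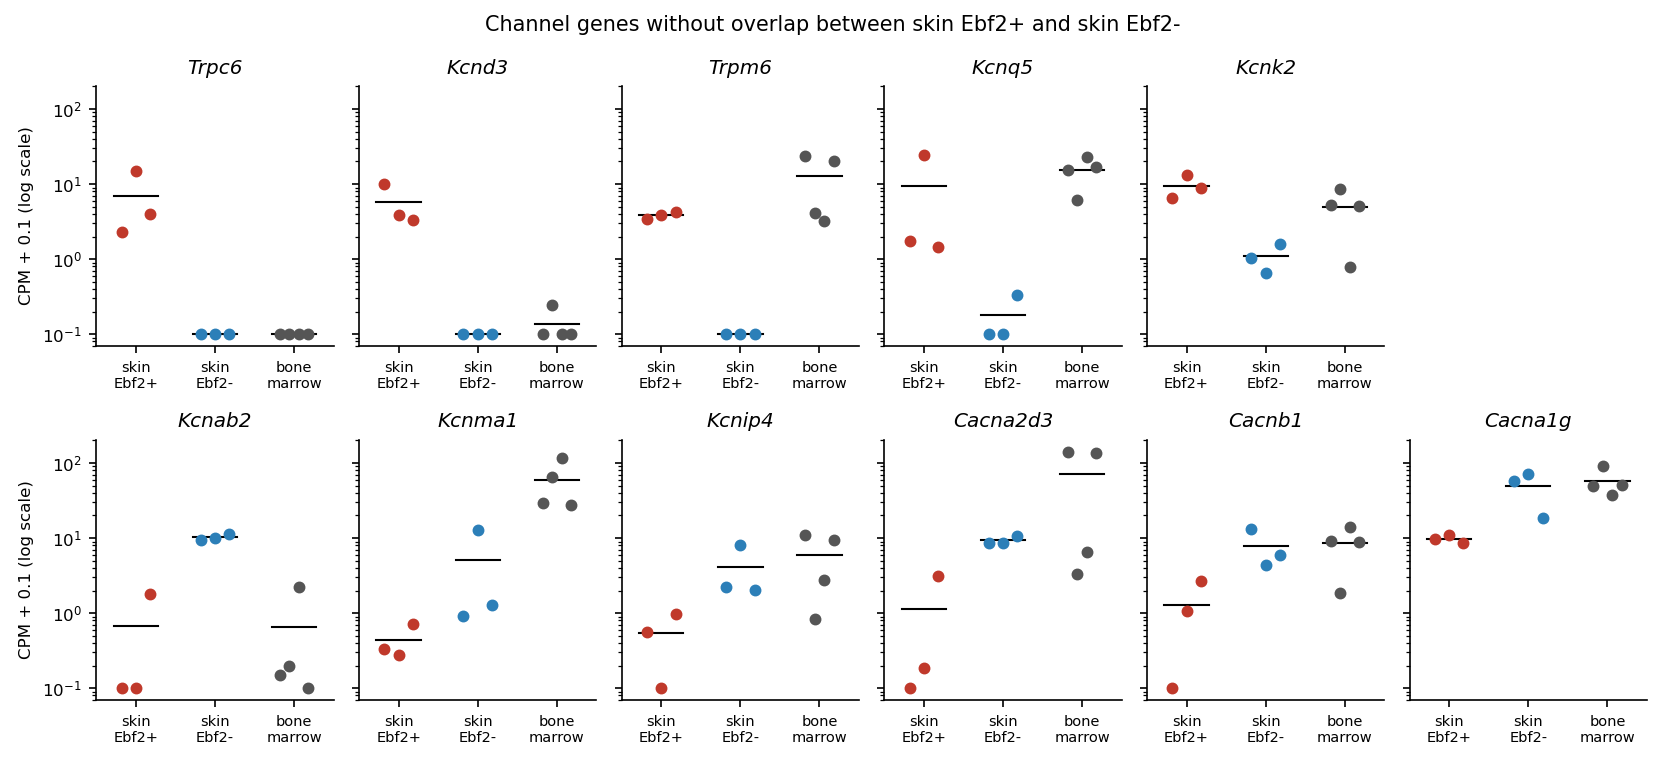
CPM + 0.1 on a log axis for the channel genes with no overlap between skin Ebf2+ and skin Ebf2- and the largest log2 fold changes, the higher ones on top and the lower ones at the bottom; points are libraries, lines are group means, and bone marrow is shown beside them. Points at 0.1 are libraries with 0 reads, among them all skin Ebf2- libraries for Trpc6, Kcnd3 and Trpm6.

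The summed markers of mural cells were higher in every skin Ebf2+ library than in any other, and so were 6 of the 13 markers one by one. Summed over the 13 of 14 listed markers in the table, they came to 1420, 4280 and 1180 CPM in skin Ebf2+, 369, 285 and 647 in skin Ebf2- and 584 to 705 CPM in bone marrow. Myh11, the smooth muscle myosin heavy chain, had 223, 843 and 67.5 CPM in skin Ebf2+, at most 0.760 CPM in skin Ebf2-, with 0.511 to 11.0 CPM in bone marrow. The pericyte marker Rgs5 had 11.2, 134 and 2.67 CPM in skin Ebf2+, 0, 0.829 and 0 in skin Ebf2- and 0.0489, 0.0975, 4.03 and 0 CPM in bone marrow, so bone marrow library 3 exceeded skin Ebf2+ library 3. Cspg4, another pericyte marker, had 69.0, 199 and 64.4 CPM in skin Ebf2+ and was highest in bone marrow library 3, at 313 CPM. Skin Ebf2+ library 2, highest in mural markers, was also the highest library for Cacna1c, Trpc6 and Kcne4. Within skin Ebf2+, Kcnq5 and Kcnk2 were also highest in library 2, at 24.7 and 12.98 CPM. Kcnd3 was highest in library 1, at 9.88 CPM, and Trpm6 in library 3, at 4.16 CPM. Skin Ebf2+ library 3, lowest of the group in mural markers, had the lowest Cacna1c of the group and not the lowest Trpc6. The part of mural cells in these channel values was not tested. Keratinocyte markers summed to 311, 22.1 and 1292 CPM in skin Ebf2+ and 1156, 317 and 680 CPM in skin Ebf2-, and overlapped between the skin groups.

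**Figure D4:**
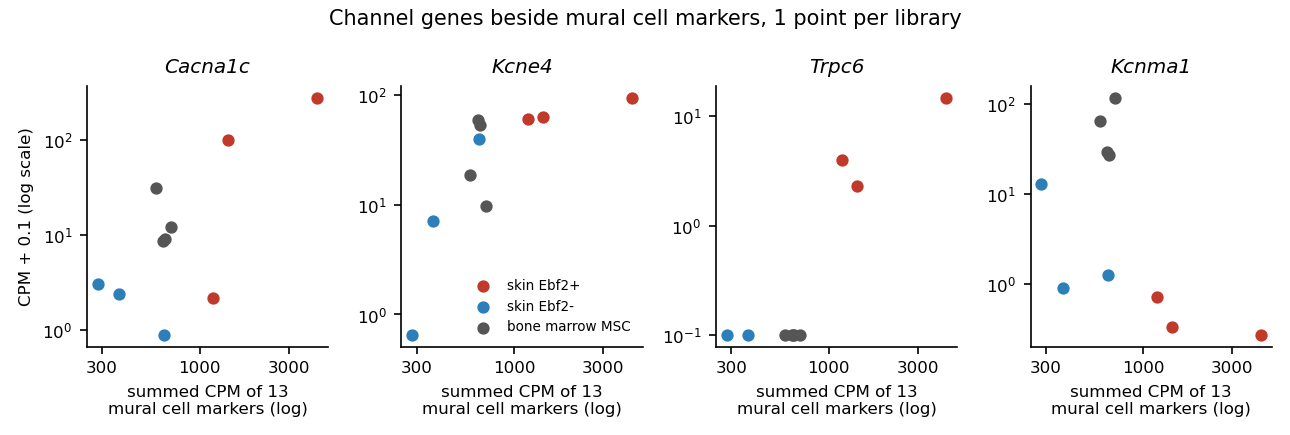
CPM + 0.1 of 4 channel genes against the summed CPM of 13 mural cell markers, both on log axes, with 1 point per library. The skin Ebf2+ libraries lie at 1180 CPM of markers and above, to the right of all others; Cacna1c ranges over the whole height within them.

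The 250 bases before annotated RefSeq starts (GRCm38.p6) were read for 41 of the 53 genes. They are shown for the genes with reads in all skin Ebf2+ libraries and few or no reads in skin Ebf2- whose window held no annotated exon, and for Trpm7, the gene with reads throughout. The windows are chr9:8543892-8544141 on the + strand for Trpc6, chr19:18749480-18749729 on the + strand for Trpm6, chr1:21962651-21962900 on the - strand for Kcnq5 and chr2:126876262-126876511 on the - strand for Trpm7. The windows of Trpc6 and Trpm6 lie inside the spans RefSeq gives for these genes, which have further starts upstream. Capitals mark the CArG box, the binding motif of serum response factor, found at -122 from the Trpc6 start.
Trpc6: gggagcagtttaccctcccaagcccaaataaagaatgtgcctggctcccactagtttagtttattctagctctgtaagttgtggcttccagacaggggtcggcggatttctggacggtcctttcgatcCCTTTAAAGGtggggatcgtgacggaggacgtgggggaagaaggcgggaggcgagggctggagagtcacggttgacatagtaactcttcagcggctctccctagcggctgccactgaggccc
Trpm6: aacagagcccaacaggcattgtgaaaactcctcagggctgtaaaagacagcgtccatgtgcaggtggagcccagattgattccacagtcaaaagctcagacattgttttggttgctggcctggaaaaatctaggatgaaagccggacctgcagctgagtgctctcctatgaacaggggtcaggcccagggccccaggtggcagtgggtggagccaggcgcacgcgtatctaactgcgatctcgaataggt
Kcnq5: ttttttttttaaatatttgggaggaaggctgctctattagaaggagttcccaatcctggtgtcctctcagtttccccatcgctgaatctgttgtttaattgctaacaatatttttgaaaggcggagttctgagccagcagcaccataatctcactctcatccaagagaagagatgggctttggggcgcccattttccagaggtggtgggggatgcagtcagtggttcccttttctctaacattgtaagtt
Trpm7: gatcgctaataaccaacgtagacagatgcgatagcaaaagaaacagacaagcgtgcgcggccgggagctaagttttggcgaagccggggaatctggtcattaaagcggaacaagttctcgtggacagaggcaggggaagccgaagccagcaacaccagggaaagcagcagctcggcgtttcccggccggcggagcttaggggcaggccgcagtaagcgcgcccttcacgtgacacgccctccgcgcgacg

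The motifs were chosen with the values in view and were searched on both strands. The CArG box was in the window of 1 of the 41 genes, Trpc6, against 1.62% of 27025 genes with such a window. The core bound by EBF factors, CCCNNGGG, which reads the same on both strands, was in 9 of the 41, which is 22%, against 13.4% of all genes. Those 9 were Cacna2d3, Cacnb4, Kcnc4, Kcnh1, Kcnip3, Kcnip4, Kcnma1, Trpv2 and Trpv4. A gene counted once if any of its windows matched, so genes with more annotated starts had more chances to match. Counted by window, 11.8% of all 32851 windows held the core. The shares by gene were not corrected for the number of windows, so the 22% cannot be read as an excess. TATAAA was in 2 of the 41, against 14.3% of all genes. None of the 4 windows printed held the EBF core.

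Skin Ebf2+ was next compared with bone marrow MSC, in a fit of all 10 libraries. The BK channel gene Kcnma1 was all but absent from skin Ebf2+ and abundant in bone marrow, while Trpc6 and Kcnd3 were read almost only in skin Ebf2+. Of the 53 genes 52 passed the filter, all but Kcng1, and edgeR called 1 of them, Kcnma1, which was lower, against 0.923% of 14520 genes called in either direction and 0.358% called lower. At an unadjusted p under 0.05 there were 16 of 52, against 14.6% of all genes. DESeq2 called 10, against 8.02% of all genes, and the authors' deposited table called 10, against 8.24% of all genes. Limma-voom called 4, but its share of all genes is not given here, so that count cannot be set against other genes. The replicate block left the call in place, against 0.461% of all genes. Values without overlap were higher in skin Ebf2+ for 5 of 52, against 6.07% of all genes, and lower for 7 of 52, against 7.66% of all genes. The median log2 fold change over the 52 was -0.34, against 0.09 over all genes.

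Kcnma1, the pore of the large-conductance potassium channel opened jointly by calcium and voltage, lies on chromosome 14 from 23292288 to 24005110. It had 0.232, 0.174 and 0.627 CPM in skin Ebf2+, from 2, 2 and 8 reads, against 29.4, 65.3, 117 and 27.3 CPM in bone marrow, from 600, 1338, 3887 and 546 reads. No skin library reached the lowest bone marrow value. The mean was 0.345 ± 0.247 CPM in skin Ebf2+ (SD, n = 3) and 59.7 ± 41.9 CPM in bone marrow (n = 4), a 173-fold lower mean (294-fold without skin Ebf2+ library 3) and a log2 fold change of -7.38 ± 1.33 (edgeR adjusted p = 0.0235). With bone marrow 1 and 4 summed it was still called (adjusted p = 0.0397). The call was lost, with the direction kept, without skin Ebf2+ library 1 or 2 or bone marrow library 2 or 3 (adjusted p from 0.0517 to 0.0922), and with a term for the earlier study, which rests the contrast on bone marrow library 4 alone (adjusted p = 0.315). Over all 22 alternatives the log2 fold change stayed between -8.16 and -6.25. Over 9 of 10 listed markers, chondrocyte markers summed to 30.1, 15.2 and 77.0 CPM in skin Ebf2+. In bone marrow they summed to 3586, 3772, 15713 and 3714 CPM, highest in library 3, where Kcnma1 was also highest. The largest there were Comp and Chad, at 1127 to 5402 and 1555 to 9355 CPM. Comp, Chad, Acan, Sox9, Col11a2 and Hapln1 were lower in every skin Ebf2+ library than in any bone marrow library. Col2a1, Col9a1 and Col9a2 overlapped, with 17.96, 3.76 and 13.18 CPM in skin Ebf2+ library 3. Bone marrow library 4 had 8.91 CPM of Col2a1 and 0 CPM of Col9a1 and Col9a2. Osteoblast markers summed to 40.2, 52.6 and 94.6 CPM in skin Ebf2+, against 495, 1030, 1063 and 466 CPM in bone marrow. The sum was higher in bone marrow libraries 2 and 3, as Kcnma1 was, but single markers differed. Spp1 and Ibsp were highest in library 3, at 499 and 223 CPM. Runx2 and Phex were lowest of bone marrow there, at 80.7 and 28.9 CPM. Dmp1 had 21.3, 25.4 and 2.12 CPM in skin Ebf2+, against at most 1.77 CPM in bone marrow. Alpl was highest in skin Ebf2+ library 3, at 40.0 CPM, against 6.06 to 11.1 CPM in bone marrow. The part of either cell type in the Kcnma1 values was not tested. Antisense transcripts overlap 5.98% of Kcnma1's annotated exon bases.

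Potassium channel genes other than Kcnma1 ran both ways and none passed. Kcnc4, a fast-opening voltage-gated pore, had 0 reads in skin Ebf2+, against 2.64, 4.10, 6.49 and 3.85 CPM in bone marrow, at least 46.7-fold lower (log2 fold change -9.17 ± 2.68, adjusted p = 0.142). Kcna6, a Shaker-type pore with 39.6% of its exon bases shared with the antisense gene Gm26673, had 0, 0 and 1.18 CPM in skin Ebf2+, against 4.45, 5.90, 23.3 and 4.95 CPM in bone marrow. Kcnd3 had 9.88, 3.75 and 3.22 CPM in skin Ebf2+, against 0.146 CPM in bone marrow library 2, from 3 reads, and 0 in the others (7.03 ± 2.09, adjusted p = 0.149). Kcne4 averaged 72.4 ± 18.8 CPM in skin Ebf2+, against 35.1 ± 24.7 CPM in bone marrow, where libraries 1 and 4, at 59.4 and 53.0 CPM, nearly reached the skin Ebf2+ values (1.04 ± 0.97, adjusted p = 0.684). Kcnip3 had 1.28, 110 and 16.6 CPM in skin Ebf2+, against 1.55 to 2.34 CPM in bone marrow (4.45 ± 1.09, adjusted p = 0.0791), and skin Ebf2+ library 1 lay below all of bone marrow.

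The calcium channel genes without overlap were all lower in skin Ebf2+. Cacna1g had 8.55 to 10.8 CPM in skin Ebf2+, against 49.6, 91.9, 37.0 and 51.0 CPM in bone marrow (log2 fold change -2.57 ± 0.61, adjusted p = 0.0724). Cacna1a, the P/Q-type pore known from nerve endings, had 15.3, 5.31 and 6.75 CPM in skin Ebf2+, against 57.3, 22.3, 27.3 and 57.5 CPM in bone marrow (-2.17 ± 0.74, adjusted p = 0.185). Cacna2d3 had at most 3.06 CPM in skin Ebf2+, against 141, 3.22, 6.40 and 135 CPM in bone marrow, where libraries 1 and 4 were the high ones (-6.05 ± 1.71, adjusted p = 0.120). Cacna2d2, another alpha2delta subunit, had at most 0.157 CPM in skin Ebf2+, against 0.587, 10.4, 3.70 and 1.10 CPM in bone marrow. Cacna1c overlapped, with 99.4, 278 and 2.04 CPM in skin Ebf2+, against 8.47, 31.4, 11.9 and 8.86 CPM in bone marrow (3.06 ± 1.05, adjusted p = 0.188). Without the skin libraries numbered 3, edgeR called Cacna1c as well as Kcnma1.

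Among TRP genes, Trpc6 was at least 217-fold higher in skin Ebf2+ than in bone marrow, where it had 0 reads, and at least 95.0-fold without skin Ebf2+ library 2 (log2 fold change 9.86 ± 2.17, adjusted p = 0.0935). DESeq2 and limma-voom called it. Trpv2, a calcium-permeable channel of the vanilloid family, had 8.02, 2.70 and 10.7 CPM in skin Ebf2+, against 1.86, 0.536, 0.631 and 2.20 CPM in bone marrow (2.44 ± 1.61, adjusted p = 0.529). Trpm6 overlapped, with 3.37, 3.75 and 4.16 CPM in skin Ebf2+, against 23.3, 4.00, 3.09 and 20.1 CPM in bone marrow. For this gene bone marrow 1 and 4 lay above skin Ebf2+ and the other bone marrow libraries lay near or below it.

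Skin Ebf2- was then compared with the same bone marrow libraries, so the comparisons with bone marrow are not independent. Skin Ebf2- was the group poorest in channel transcripts, and the members tended to lie below bone marrow, with Trpm6, Kcnq5, Kcnma1 and Cacna1a among those lower without overlap. Of the 52 genes that passed the filter, 36 had a negative log2 fold change and 15 a positive one, Trpc6 having 0 reads in both groups, with a median of -0.98, against 0.06 over all genes. Values without overlap were lower for 13 of 52, which is 25%, against 9.27% of all genes, and higher for 3 of 52, against 9.46% of all genes. EdgeR called 1 of 52, Trpm6, lower, against 0.730% of all genes in either direction and 0.337% lower. At an unadjusted p under 0.05 there were 9 of 52, against 12.2% of all genes. DESeq2 called 5, against 5.61% of all genes, and the authors' deposited table called 5, against 5.63% of all genes: Cacna1a, Kcna6, Kcnma1, Kcnq5 and Trpm6, all lower. Limma-voom called 4, again without a share of all genes to set it against. With the replicate block edgeR called 0, against 0.475% of all genes.

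Trpm6 had 0 reads in all 3 skin Ebf2- libraries, against 476, 82, 103 and 401 reads in bone marrow, or 23.3, 4.00, 3.09 and 20.1 CPM. It was at least 172-fold lower in skin Ebf2- (log2 fold change -10.73 ± 1.95, edgeR adjusted p = 0.0383). The call was lost with bone marrow 1 and 4 summed (adjusted p = 0.105), without the skin libraries numbered 3 (0.0977) and when any 1 library of either group other than bone marrow 3 was left out (0.0581 to 0.126), with the direction kept in each. Bone marrow libraries 1 and 4, the nearly identical pair, were its highest. Kcnq5 had 0, 0 and 0.236 CPM in skin Ebf2-, against 15.5, 6.00, 22.6 and 16.6 CPM in bone marrow (-7.50 ± 1.83, adjusted p = 0.0869). Kcnma1 had 0.805, 12.8 and 1.18 CPM in skin Ebf2-, against 27.3 to 117 CPM in bone marrow (-3.59 ± 1.07, adjusted p = 0.163). Its highest skin Ebf2- value was in library 2, which carried the T cell transcripts. Kcna6 had 0, 0 and 0.314 CPM in skin Ebf2-, against 4.45 to 23.3 CPM in bone marrow (-6.45 ± 2.28, adjusted p = 0.245).

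Kcnc2, a fast-opening voltage-gated pore, had 1.76, 0 and 1.57 CPM in skin Ebf2-, against 19.5, 12.4, 3.18 and 17.8 CPM in bone marrow (log2 fold change -3.57 ± 1.67, adjusted p = 0.415). Kcnj15, an inward rectifier of epithelia, had at most 0.314 CPM in skin Ebf2-, against 0.536 to 12.9 CPM in bone marrow. Cacna1a had 9.51, 8.29 and 3.14 CPM in skin Ebf2-, against 22.3 to 57.5 CPM in bone marrow (-2.55 ± 0.75, adjusted p = 0.158). Cacna1c had at most 2.97 CPM in skin Ebf2-, against 8.47 to 31.4 CPM in bone marrow (-2.91 ± 1.15, adjusted p = 0.307). The widely read Trpm7, Cacna2d1 and Kcnt2 were also lower without overlap, by smaller log2 fold changes of -0.61 ± 0.44, -1.27 ± 0.67 and -1.41 ± 0.66. The remaining genes lower without overlap were Kcna2 and Kcnc4.

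Keratinocyte markers, at 1156, 317 and 680 CPM in skin Ebf2-, against 10.6 to 19.8 CPM in bone marrow, also differed between these groups, and their part in the channel values was not tested. The genes higher without overlap in skin Ebf2- were the A-type pore Kcnd1, its partner Kcnip3 and Kcnab2. Kcnd1 had 9.36, 6.21 and 7.85 CPM in skin Ebf2-, against 1.13, 1.17, 0.571 and 1.25 CPM in bone marrow (log2 fold change 2.92 ± 1.48, adjusted p = 0.467). Kcnip3 had 14.05, 13.33 and 16.4 CPM in skin Ebf2-, against 1.91, 1.95, 2.34 and 1.55 CPM in bone marrow (2.91 ± 1.03, adjusted p = 0.246). Both were even within each group. Kcnab2 had 9.44, 10.0 and 11.2 CPM in skin Ebf2-, against 0.0489, 0.0975, 2.10 and 0 CPM in bone marrow (4.16 ± 2.02, adjusted p = 0.442). Kcnk5 overlapped through bone marrow library 2, with 17.6, 45.02 and 40.5 CPM in skin Ebf2-, against 3.08, 22.6, 15.3 and 2.75 CPM in bone marrow.

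**Figure D5:**
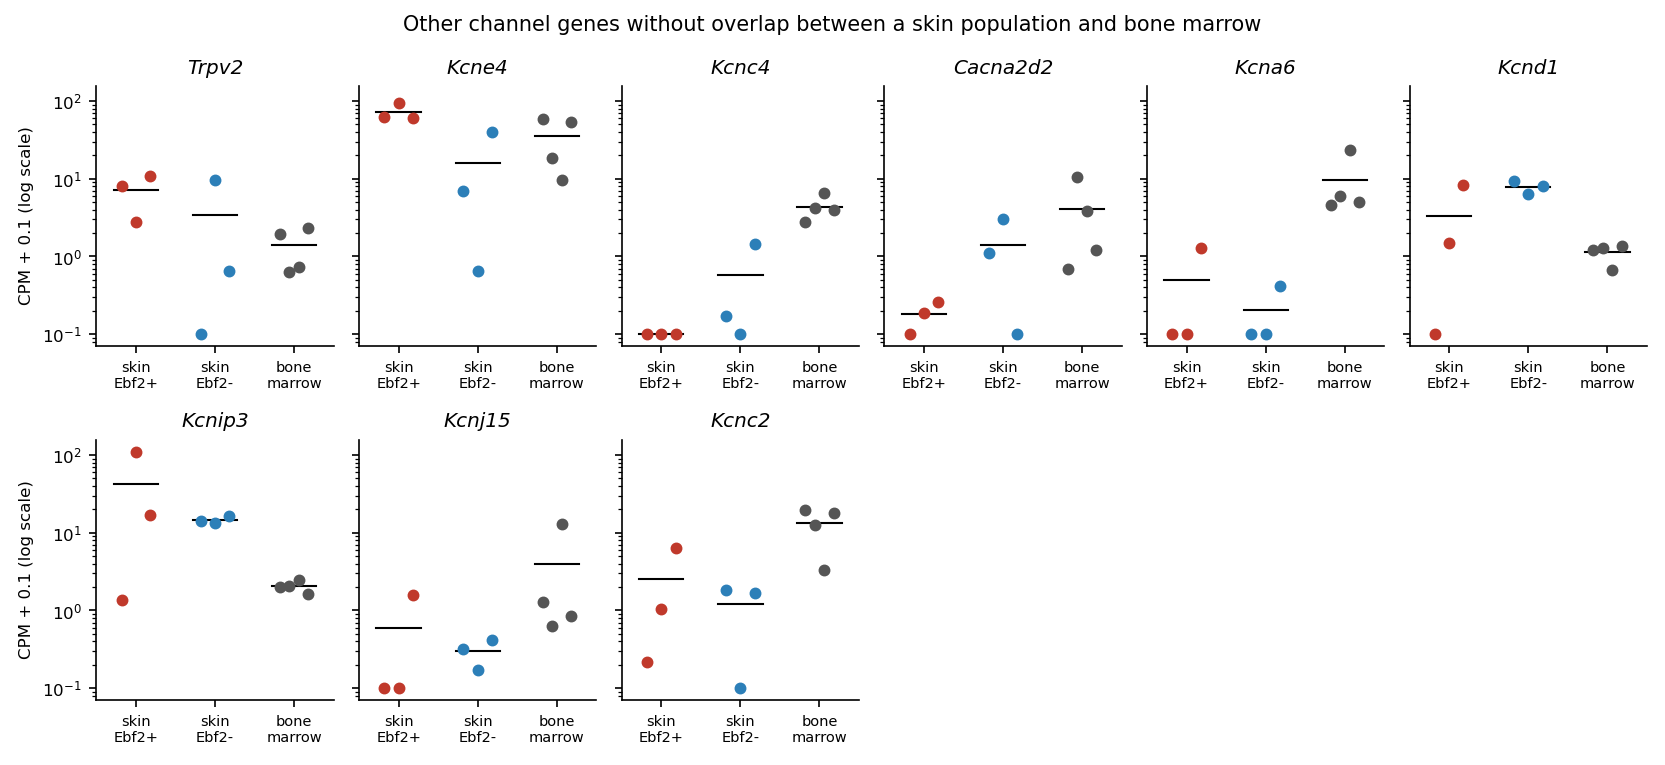
CPM + 0.1 on a log axis for further channel genes with no overlap between a skin population and bone marrow; points are libraries and lines group means. Kcnd1 in skin Ebf2- lies at 6.21 to 9.36 CPM, above all bone marrow libraries, and Kcna6 in skin Ebf2- lies at or below 0.314 CPM, under all of them.

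The other members were low or uneven. Kcnj2, the strong inward rectifier that holds the resting voltage, ranged from 0 to 38.5 CPM in skin Ebf2+, 0 to 21.7 in skin Ebf2- and 0.391 to 68.0 CPM in bone marrow. Kcnn3, a small-conductance channel opened by calcium, had 91.1, 0 and 5.41 CPM in skin Ebf2+, 14.5, 8.15 and 1.26 in skin Ebf2- and 6.76 to 15.9 CPM in bone marrow. Kcnk6, a two-pore channel, had 0.349, 1.13 and 35.8 CPM in skin Ebf2+ and 12.4, 4.35 and 36.9 CPM in skin Ebf2-, highest in both libraries numbered 3. Trpm4, a sodium-passing channel opened by calcium, had 0.349, 2.09 and 16.4 CPM in skin Ebf2+, 6.95, 15.8 and 31.6 in skin Ebf2- and 0.489 to 12.1 CPM in bone marrow. Trpv4, opened by swelling and warmth, had 0.813, 0 and 11.4 CPM in skin Ebf2+, 4.39, 1.93 and 6.12 in skin Ebf2- and 6.12, 6.63, 37.8 and 5.91 CPM in bone marrow. These genes varied within groups as much as between them. The beta subunits Cacnb3 and Cacnb4 overlapped in all 3 comparisons, with Cacnb3 at 0.349, 19.95 and 19.1 CPM in skin Ebf2+, 23.6, 3.59 and 14.8 in skin Ebf2- and 8.11 to 37.5 CPM in bone marrow. Cacnb2 stayed at 1.05 to 1.65 CPM in skin Ebf2+, against 0.658 to 1.02 CPM in skin Ebf2-, without overlap. Kcnt1, the other sodium-activated channel, had 0, 5.58 and 3.45 CPM in skin Ebf2+, 0 to 1.66 in skin Ebf2- and at most 0.0488 CPM in bone marrow. Kcnu1, a pore known from sperm, had 0 reads in all 4 bone marrow libraries and at most 2.05 CPM in skin. The members not tested between the skin groups, for low counts, were Cacna1d, Cacna1h, Cacna2d2, Kcna6, Kcnc4, Kcng1, Kcnj13, Kcnj15, Kcnn4 and Kcnu1. Of these Kcnj13 showed no overlap, with 0, 0 and 0.157 CPM in skin Ebf2+, against 0.732, 2.35 and 0.550 CPM in skin Ebf2-, and 49.1% of its exon bases overlap the antisense gene Gigyf2. Kcnab1, Kcng4, Kcnh1, Kcnn1, Kcns3, Trpc1 and Trpm3 overlapped in all 3 comparisons.

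Few genes that work with these channels were called, as for all genes, of which edgeR called 0%, 0.923% and 0.730% in the 3 comparisons. The table held 20 calmodulin and calcineurin pathway genes, 14 calcium pumps and exchangers and 11 genes of calcium stores and store-operated entry. It also held 16 chloride channels, 8 sodium channel subunits, 7 other TRP genes and 4 genes listed as potassium channel partners. Of all these edgeR called 0 in each of the 3 comparisons. Atp2a2, the calcium pump of the endoplasmic reticulum, had 262 to 418 CPM in skin Ebf2+, 249 to 349 in skin Ebf2- and 329 to 464 CPM in bone marrow. Saraf, a brake on store-operated entry, and Kctd12, of the list of potassium channel partners, had the highest mean CPM of their lists. So did Pkd1, the polycystin of the other TRP list, Scn7a, a sodium channel, and Ano6, a chloride channel and scramblase. These means were taken over the 3 groups, with no correction for length. Of 6 calcium channel gamma subunits and partners 1 was called. Rem1, a small GTPase that holds back calcium channels, had 49.6, 40.9 and 20.2 CPM in skin Ebf2+, against 0.391, 2.93, 2.25 and 0.851 CPM in bone marrow, and rose by a log2 fold change of 4.52 ± 0.93 (edgeR adjusted p = 0.0430). The call was kept in 7 of 22 alternatives and lost with bone marrow 1 and 4 summed (adjusted p = 0.121) and with the replicate block (0.170). In skin Ebf2- it had 2.78, 6.28 and 3.53 CPM, below all of skin Ebf2+ (3.13 ± 0.83, adjusted p = 0.873). Of 10 other cation and mechanosensitive channels 1 was called in each comparison with bone marrow. Hcn4, the pacemaker channel gene, had 6.16, 7.49 and 4.55 CPM in skin Ebf2+ and 7.46, 21.96 and 4.71 CPM in skin Ebf2-, against 0 reads in all 4 bone marrow libraries. Its edgeR adjusted p was 0.0300 for skin Ebf2+ and 0.0246 for skin Ebf2- against bone marrow, 0.0603 and 0.0546 with bone marrow 1 and 4 summed, and 0.110 and 0.103 with the replicate block. The calls were kept in 9 and 8 of 22 alternatives.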

How the data were processed

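RNA was measured by bulk sequencing in 10 libraries of sorted cells, with 75 bp single-end reads from SMART-Seq v4 cDNA, per the labels' protocols. The authors deposited raw counts per Entrez gene, made with STAR on the primary assembly of GRCm38 and featureCounts, per the file headers. STAR 2.6.1d is given in the submitters' processing notes. No source used here gives the strand setting, so antisense and overlapping genes may share reads. The authors' deposited table also holds DESeq2 comparisons, per the file headers, whose adjusted p-values and log2 changes are used only where the text names that table. Its 10 columns of normalized counts were not used. Dates had replaced 18 symbols, which were restored by Entrez number, and 251 genes had no symbol. Columns were tied to samples through their names, with the number after S read as the replicate number of the title, a link that the labels do not state.

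Counts were tested across all genes with edgeR 4.0.16 in R 4.3.3 (quasi-likelihood test, TMM, filterByExpr, Benjamini-Hochberg, two-sided, adjusted p 0.05). The skin groups were compared in a fit of 6 libraries and each was set against bone marrow in a fit of 10 libraries and 3 groups. DESeq2 1.42.0 and limma-voom (limma 3.58.1) were alternatives. The edgeR test was also tried on simulated counts, with a fixed spread that was not estimated from these libraries. That trial does not show how often real differences would be called here. An SE is the size of the log2 fold change over the square root of the F statistic. CPM per kilobase uses the union of GENCODE M21 exons. Floors of 3 counts cover only counting error, since amplified reads that carry no molecular identifiers are not separate molecules. The labels do not say that replicates came from separate animals, beyond 3 mice for skin and 4 for bone marrow, so p-values measure the spread between these samples.

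Skin libraries of equal number deviated together (r = 0.182, 0.224 and 0.599 for numbers 1, 2 and 3, across genes). Unequal numbers 1 and 2 reached 0.139 and 0.147, close to the values of equal numbers 1 and 2. The numbers were taken as a possible pairing of the skin libraries, from the data and not the labels. The main tests left this pairing out, and only the fit with the replicate block used it. Named genes were those past the threshold, the 12 highest per kilobase, the 2 highest of each family, the 6 largest differences each way without overlap in each comparison, and of each other list those called or else the highest. The rule named 35 of the 53 members; the others, among them Cacna1a, Kcnn3, Kcnt1 and Kcnj13, were added with their values known. The members and lists were chosen with earlier results of these data known. Some channel genes and results are not reported here.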

Additional observations from a re-analysis of the deposited data

Results flagged for a closer look

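Of 35 channel genes examined in the 4 bone marrow libraries, 6 had 1 library far from the others, by a gap over 0.829 of the range. For 4 independent and normally distributed values, chance gives such a library in about 1 group in 20. Library 3 was the high one for 4 of them. Trpv4 had 37.8 CPM there, against 5.91 to 6.63 CPM in the other bone marrow libraries. Kcna6 had 23.3 CPM there, against 4.45 to 5.90 CPM. Kcnj15 had 12.9 CPM there, against 0.536 to 1.17 CPM. Kcnab2 had 2.10 CPM there, against 0 to 0.0975 CPM. Chondrocyte markers were also highest in bone marrow library 3, with Col2a1 at 404 CPM against 8.91 to 35.6 CPM in the others, and their part in these values was not tested. Bone marrow library 2 was the high one for Cacna1c, with 31.4 CPM against 8.47 to 11.9 CPM, and for Kcnd3, with 0.146 CPM from 3 reads against 0 CPM. Any gene read in 1 library alone stands out in this way, so the Kcnd3 value does not count toward a pattern. Bone marrow libraries 1 and 4 are nearly identical, and both are among the remaining 3 values of each gene. The 4 values are thus not independent and the rate of 1 in 20 does not hold here. The 6 genes cannot be read as more than chance gives.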

How the results depend on the processing

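Counts of channel genes called moved with the tool and the libraries. Shares of all genes called are given above for the main fit, DESeq2 and the replicate block. For the other settings they are not given, so a changed count there cannot be read as particular to channel genes. For skin Ebf2+ against skin Ebf2-, edgeR called 0 in each of its alternatives, limma-voom 0 and DESeq2 4; the replicate block, for which the skin numbers count as paired, also gave 0. For skin Ebf2+ against bone marrow, the count of 1 became 10 with DESeq2, 4 with limma-voom, 2 without the skin libraries numbered 3, and 0 with bone marrow 1 and 4 left out, with the earlier study as a batch term or with bone marrow 4 alone. The last 2 rest on 1 bone marrow library, the only one the labels do not credit to the earlier study, taken to vary as the other groups do, so lost calls there say little. It ran from 0 to 3 when libraries were left out singly, with 0 without skin Ebf2+ 2, bone marrow 2 or bone marrow 3, and Kcnip3 called in place of Kcnma1 without skin Ebf2+ 1. For skin Ebf2- against bone marrow, the count of 1 became 5 with DESeq2, 4 with limma-voom, 2 in a fit of those groups alone (Trpm6 and Kcnq5), and 0 with the replicate block (Trpm6 adjusted p = 0.134), without the skin libraries numbered 3, with bone marrow 1 and 4 summed or left out, with the batch term, and with bone marrow 1 to 3 or 4 alone. It ran from 0 to 1 when libraries were left out singly. An alternative chosen after seeing the data, bone marrow 1 and 4 summed without skin Ebf2- 2, gave 1 for skin Ebf2+ and 0 for skin Ebf2- against bone marrow. Bone marrow numbers did not pair with skin numbers, so a call lost with the block does not show a smaller effect. Kcnma1 was called in 15 of 22 alternatives (adjusted p 4.31e-10 to 0.447) and Trpm6 in 8 of 22 (6.13e-08 to 0.482). Of 617 alternatives run on 32 gene results, 576 kept the side of the threshold, 21 lost a call, 20 gained one and 0 changed direction. The causes were not tested. Depth limits absence: 0 reads in skin Ebf2- allows up to 0.0734 CPM over the group.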
